A study of Mus musculus with 2 samples.

Results

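Transcripts of the enzymes that make fatty acids and triglycerides were followed in mouse liver after injury of the kidneys. The set holds 33 listed genes, and its members are the probe sets of the array whose annotation names exactly 1 gene, that gene being in the list. All 33 genes were on the array, with 78 probe sets, out of 18194 genes named in this way and 45037 probe sets that are not controls. A probe set was used when the brighter of its signals reached the median of its array, which 66 probe sets of 32 genes did. The exception was Acacb, the acetyl-CoA carboxylase of the mitochondrial surface. Its probe sets had signals of 84.0 and 59.3 in sham liver and of 56.0 and 81.7 after kidney injury, all under the array median.

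The animals were male wild-type C57BL/6 mice, 8 weeks old. In the injured group both kidneys were kept ischaemic and warm for 30 minutes and then reperfused (renal IRI), the control group had a sham operation, and livers were taken 24 hours later. Frozen liver of 3 mice, 100 mg, was pooled in each group, and each pool was hybridised to 1 Affymetrix array. There were therefore 2 samples with no replicates, the spread between mice was averaged into the pool and cannot be seen, and no test was possible.

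The liver turns surplus carbohydrate into fat. Glycolysis supplies citrate, from which acetyl-CoA is released in the cytosol, carboxylated to malonyl-CoA and built into palmitate. Palmitate is activated to acyl-CoA, which can be elongated and desaturated and is esterified to glycerol. The transcription factor SREBP-1c, driven by insulin, and the carbohydrate-responsive factor ChREBP, encoded by Mlxipl, are the main activators of these genes in hepatocytes, and fasting lowers their expression.

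The livers carried the markers of their tissue. All 7 measured hepatocyte markers lay far above the array medians of 257.0 (sham) and 254.1 (renal IRI), and their summed signal was 218640 in sham liver and 276851 after renal IRI. Of these 7, 1, Cps1 (33264.7 and 15306.7), was at least 2-fold lower, and none was at least 2-fold higher. Markers of other cells differed between the pools. Of 9 pancreatic acinar markers, 7 were at least 2-fold higher after renal IRI, with a summed signal of 4971.6 in sham liver and 13261.8 after renal IRI. Of 5 Kupffer cell markers, 1, Cd5l, was at least 2-fold lower, and their sum went from 6677 to 3810.7. Of 4 adipocyte markers, Adipoq (38 and 25) and Lep (42.6 and 61.1) were under the array median in both pools, while Fabp4 had signals of 240.2 and 5683.9 and their sum went from 1345.9 to 6917.2. Of 4 cholangiocyte markers, Krt19, Epcam and Sox9 were at least 2-fold higher and Krt7 was under the array median in both pools, with sums of 653.1 and 2453.3. Of 4 neutrophil markers, 2 were at least 2-fold higher, with sums of 1400.8 and 3705.4. Sums were 5687.1 and 6445.8 for 5 endothelial markers, of which Lyve1 (326.8 and 2740.5) was at least 2-fold higher and Clec4g at least 2-fold lower, 8720.7 and 11097.3 for 5 stellate cell markers, of which Dcn was higher and Lrat lower by that much, and 784.3 and 912 for 4 lymphocyte markers. By any amount, 3 of the endothelial and 4 of the stellate cell markers were lower. The sums of these 2 lists rose with Lyve1 and with Dcn (3967.7 and 8037.4). No marker of these lists was at 0. The part of these cells in the differences below was not tested. In such bulk tissue, fewer cells of a type and less RNA per cell cannot be told apart.

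Most genes of the pathway had a lower signal after renal IRI. Differences are given as renal IRI minus sham on the log2 scale of signal plus a pseudocount of 16, which understates the change of dim genes, and each gene is read by its brightest probe set. Of the 32 genes past the filter, 18 were at least 2-fold lower and 1, Elovl5, was at least 2-fold higher. Over all 13117 genes past the same filter, these shares were 9.59% for lower and 8.71% for higher genes. The bacterial control transcripts added to each hybridisation were brighter on the renal IRI array, and taking them as the reference lowers every log2 difference by 0.28. Then 19 pathway genes were at least 2-fold lower and none higher, beside 15.4% and 5.76% of all genes. On the deposited scale, the median log2 difference was -1.08 for the pathway and -0.01 for all genes. Acsl3 passed the filter by its sham signal alone, so it could only be counted if it was lower, and 17 of the 18 lower genes were at or above the array median in both pools.

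**Figure D1:**
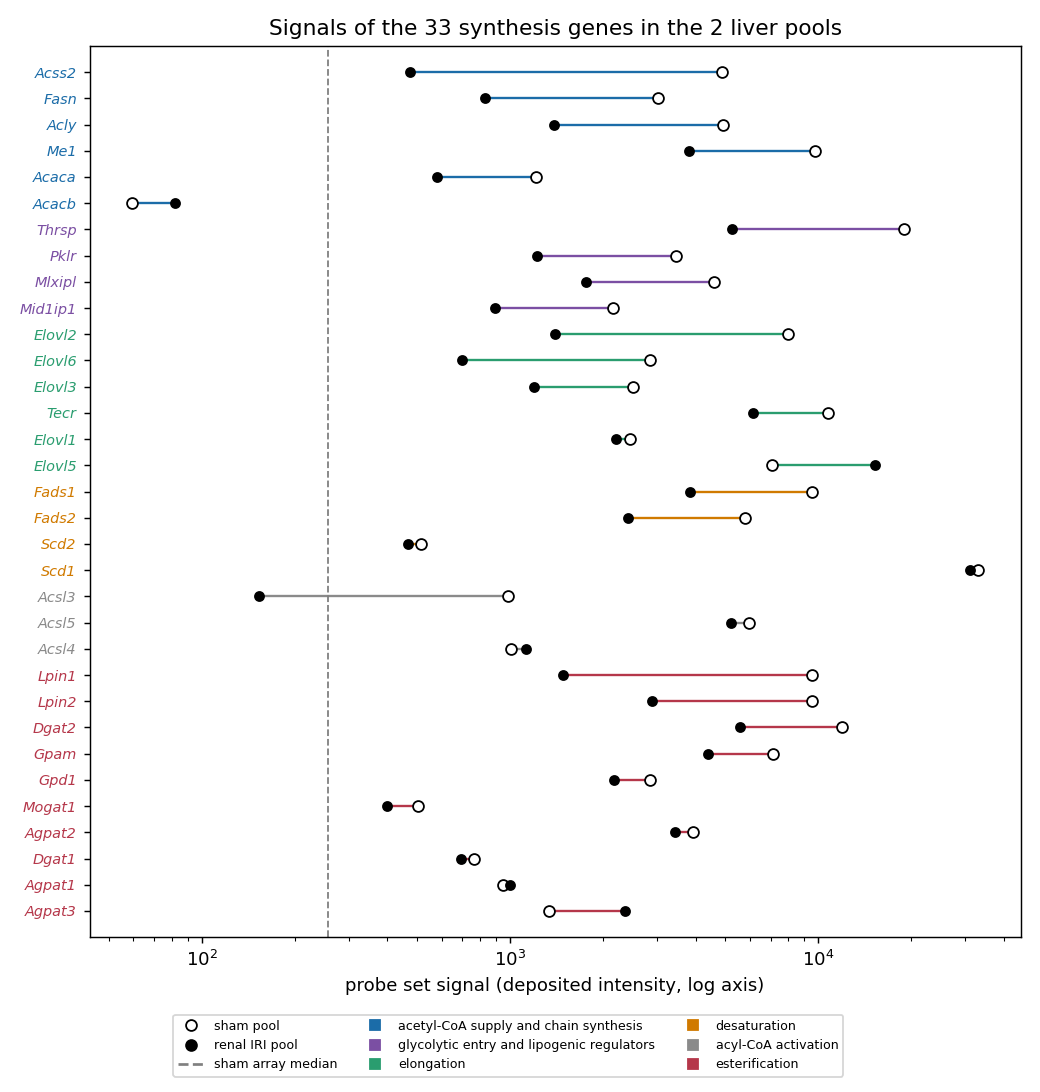
Signals of the 33 genes on a log axis, each gene by its brightest probe set, with an open circle for the sham pool and a filled circle for the renal IRI pool, 1 array each. The filled circle lies to the left for most genes, to the right for Elovl5, Agpat3, Acsl4, Agpat1 and the dim Acacb, and both circles of Acacb lie under the dashed array median.

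Most of the pathway genes were bright, so they were also set beside genes of like brightness. Of the 3280 genes at or above the 75th percentile of mean log2 signal, 11.0% passed 2-fold downwards and 8.57% upwards. Of the 25 pathway genes among them, 16 passed it downwards and 1 upwards.

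The steps of the pathway differed in how many of their genes were lower. All 5 measured genes of acetyl-CoA supply and chain synthesis and all 4 genes of glycolytic entry and lipogenic control were at least 2-fold lower, with medians of -1.81 and -1.43. In the first of these steps the calls of Acly, Me1 and Acaca depend on the probe set. With the probe set of the smallest difference they stood at 0.36, 0.11 and -0.17, and the median of the step was -0.17. In the second step the call of Pklr depends on it too. With the same choice Pklr stood at -0.60, and the median of that step was -1.32. Of 6 elongation genes, 3 were lower by that much and 1 higher (median -0.93). Of 4 desaturases, 2 were at least 2-fold lower (median -0.70). Of 10 esterification genes, 3 were at least 2-fold lower (median -0.36), and of 3 acyl-CoA synthetases, 1 was (median -0.20). Beside these counts, 9.59% of all 13117 genes past the filter went down by that much and 8.71% went up. The differences between steps were not tested, and each step has few genes.

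**Figure D2:**
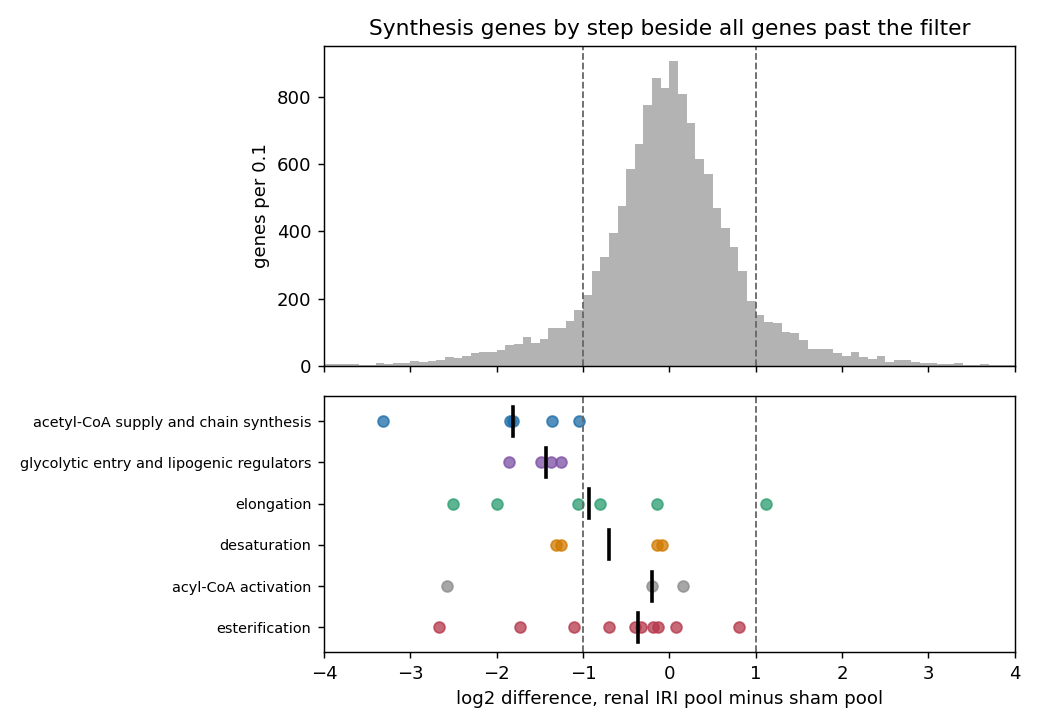
Log2 differences, renal IRI minus sham, with all genes past the filter as a histogram above and the pathway genes by step below, a point for each gene and a black bar for the step's median. Every gene of the upper 2 steps lies left of the dashed 2-fold line, while the genes of the other steps lie on both sides of it; genes beyond 4 in either direction are not drawn.

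At the entry of the pathway, the acetyl-CoA synthetase Acss2, which activates acetate in the cytosol, had the largest difference of all members. Its signal was 4865.1 in sham liver and 475.5 after renal IRI, 9.93-fold lower. A second probe set read 2849.7 and 191.0, the latter under the array median. Both probe sets therefore stood far lower after renal IRI. ATP citrate lyase (Acly), which releases acetyl-CoA from citrate, had signals of 4898.3 and 1387.1, 3.50-fold lower. Of its 4 probe sets past the filter, 3 were at least 2-fold lower, whereas a dim one (245.1 and 318.0) was slightly higher at a log2 difference of 0.36.

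Fatty acid synthase (Fasn), the multienzyme that assembles palmitate, was read by 1 probe set, with signals of 3026.4 and 832.3, 3.59-fold lower. The preceding enzyme, the acetyl-CoA carboxylase Acaca, had signals of 1210.9 and 580.3, only just past 2-fold at 2.06-fold lower. Its other probe set (489.7 and 432.5) stood at -0.17, so the size of the Acaca difference depends on the probe set. Malic enzyme (Me1), a source of NADPH for synthesis, had signals of 9745.3 and 3795.2 by its brighter probe set, 2.56-fold lower. Its other probe set read 1999.7 and 2158.4, a log2 difference of 0.11, so no direction is settled for Me1.

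Among the genes that feed or tune the pathway, Thrsp (Spot 14), a small lipogenic protein, had signals of 18984.2 and 5233.1, 3.62-fold lower, and 5699.3 and 1309.4 by a second probe set. Its relative Mid1ip1, which promotes the polymerisation of acetyl-CoA carboxylase, had signals of 2164.2 and 894.7, 2.39-fold lower. Both partners were thus lower, although Mid1ip1 rests on 1 probe set. Liver pyruvate kinase (Pklr), the last enzyme of glycolysis and a target of ChREBP, had signals of 3466.3 and 1224.4, 2.81-fold lower. Its 3 probe sets were all lower but ranged from -3.21 to -0.60. The largest of these differences rests on a renal IRI signal of 149.6, under the array median. Mlxipl itself had signals of 4582.2 and 1759.9, 2.59-fold lower by its only probe set.

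The promoters of these genes were examined in the 250 bases before the transcription start, from RefSeq on GRCm38.p6, where 26 of the 33 genes matched, with 35 promoters. The promoters of Acss2, Fasn and Mlxipl are shown as genes that were lower together, and that of Elovl5 as the gene that was at least 2-fold higher. Capitals mark CCAAT, the motif of NF-Y, and CACGTG, the E box read by factors such as USF and ChREBP with its partner Mlx, on either strand. The 250 bases of Acss2 are chr2:155517793-155518042 (+ strand), of Fasn chr11:120824548-120824797 (- strand), of Mlxipl chr5:135089640-135089889 (+ strand, 1 of 2 promoters) and of Elovl5 chr9:77917115-77917364 (+ strand).
Acss2: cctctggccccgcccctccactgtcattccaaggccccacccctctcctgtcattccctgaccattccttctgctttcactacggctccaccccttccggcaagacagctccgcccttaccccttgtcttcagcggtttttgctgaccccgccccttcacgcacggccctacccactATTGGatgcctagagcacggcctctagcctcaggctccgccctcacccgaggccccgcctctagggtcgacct
Fasn: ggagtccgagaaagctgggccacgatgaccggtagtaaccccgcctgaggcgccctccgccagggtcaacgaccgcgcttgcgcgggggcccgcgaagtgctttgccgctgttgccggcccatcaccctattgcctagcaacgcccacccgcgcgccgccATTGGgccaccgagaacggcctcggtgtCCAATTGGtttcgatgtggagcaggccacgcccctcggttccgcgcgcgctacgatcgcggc
Mlxipl: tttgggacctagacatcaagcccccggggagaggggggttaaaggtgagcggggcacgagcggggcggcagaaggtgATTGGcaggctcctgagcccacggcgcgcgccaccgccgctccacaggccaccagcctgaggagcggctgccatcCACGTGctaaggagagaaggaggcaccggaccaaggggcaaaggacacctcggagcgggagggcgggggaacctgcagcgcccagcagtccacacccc
Elovl5: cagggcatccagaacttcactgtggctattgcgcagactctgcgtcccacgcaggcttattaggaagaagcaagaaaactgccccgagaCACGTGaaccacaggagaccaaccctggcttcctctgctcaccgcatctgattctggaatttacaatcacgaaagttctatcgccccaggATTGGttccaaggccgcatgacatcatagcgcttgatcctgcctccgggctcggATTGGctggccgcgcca

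The letters did not separate lower genes from the others. CCAAT on either strand was in 15 of the 35 promoters of the pathway (42.9%) and in 33.8% of all 32851 promoters. Among genes at least 2-fold lower, 8 of 15 held it, and among the other genes, 7 of 11. These 7 include Acacb, which did not pass the filter and so was given no difference. Fasn held it at 3 places, of which the pair nearest the start overlap, and Elovl5 at 2. CACGTG was in 3 member promoters (8.57%, against 6.02% of all), those of Mlxipl, Lpin2 and Elovl5. The sterol regulatory motif searched, TCACNCCAC with N for any base, on either strand, was in 1 member promoter (2.86%, against 1.05% of all), the other promoter of Mlxipl. It overlapped neither of the other motifs. A match of letters is a description and not a binding site.

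Elongation enzymes went in both directions. Elovl6, which extends palmitate to stearate, had signals of 2844 and 698.2, 4.0-fold lower, and its 3 probe sets were all lower (-2.0 to -0.94). Elovl2, which extends long polyunsaturated fatty acids towards DHA, had signals of 7975.1 and 1395.1 by its only probe set, 5.66-fold lower. Elovl3, an elongase of saturated and monounsaturated very long chains, had signals of 2505.1 and 1197.4, just past the threshold at 2.08-fold lower.

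Elovl5, which extends polyunsaturated fatty acids of medium length, stood apart. Its signals were 7067.6 in sham liver and 15332.5 after renal IRI, 2.17-fold higher. Its second probe set, open to cross-hybridisation (suffix _x_at), read 6537.7 and 11545.2, a log2 difference of 0.82. Both probe sets were higher, and under quantile normalization, removal of a signal trend or the hybridisation controls as reference the gene stayed higher but was under 2-fold (0.83 at the lowest). The remaining genes of this step were closer between the pools. Elovl1, an elongase of saturated very long chains, had signals of 2450.1 and 2209.4, with 3 probe sets from -0.68 to -0.15. Tecr, the reductase that completes each elongation cycle, had signals of 10735.9 and 6161.4 (-0.80). Its other probe set, open to cross-hybridisation (suffix _s_at), read 4256.5 and 3572.2 (-0.25).

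The desaturases for oleate were close between the pools. Scd1, the main stearoyl-CoA desaturase of liver, which makes oleate, had signals of 33027 and 31059.6, a log2 difference of -0.09. Its second probe set, lower on the scale of signals, read 8178.5 and 7800.7 (-0.07). Scd1 thus differed little while Fasn and Elovl6, which supply its substrates, were more than 3-fold lower. Scd2, a close paralogue that predominates outside the adult liver, had signals of 516.1 and 467.1 (-0.14), and its 3 probe sets ranged from -0.49 to -0.14.

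The front-end desaturases of polyunsaturated fatty acids were lower. Fads2, the delta-6 desaturase, had signals of 5802 and 2418.9, 2.39-fold lower, and a second probe set read 6247.9 and 1471 (4.21-fold lower). Fads1, the delta-5 desaturase, had signals of 9570 and 3845.1, 2.48-fold lower, while its other probe set read 1097.4 and 998.8 (-0.13). In the polyunsaturated branch, Fads1, Fads2 and Elovl2 were therefore lower by their brightest probe sets and Elovl5 higher.

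Acyl-CoA synthetases, which activate fatty acids, differed from one another. Acsl3, the form found on lipid droplets, had signals of 987.3 and 153.0, at least 3.71-fold lower against the array median, by a probe set open to cross-hybridisation (suffix _s_at). Its other probe set past the filter was dim (281.4 and 146.4) and stood at -0.87, so the 2-fold call of Acsl3 depends on the probe set. Acsl4, which prefers arachidonate, had signals of 1005.4 and 1127.7 (0.16). That difference was -0.12 with the hybridisation controls as reference, and a dim probe set of Acsl4 read 201.2 and 585.5 (1.47). Acsl5, a form of mitochondria and endoplasmic reticulum, had signals of 5952.4 and 5193.6 (-0.20).

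In esterification, the genes past 2-fold were the phosphatidate phosphatases and one acyltransferase. Lipins dephosphorylate phosphatidate to diacylglycerol, and lipin 1 also acts as a transcriptional coactivator. Lpin1 had signals of 9526.3 and 1483.2, 6.36-fold lower, and its second probe set gave nearly the same, 8508.6 and 1264.1 (6.66-fold lower). Lpin2, the other main lipin of liver, had signals of 9549.7 and 2878.5, 3.30-fold lower, and its 3 probe sets past the filter were all at least 2-fold lower (-2.54 to -1.04). Dgat2, the acyltransferase that makes triglyceride mainly from newly made fatty acids, had signals of 11917.6 and 5554.8, 2.14-fold lower, and 6152.6 and 3676.7 by another probe set (-0.74).

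The listed genes earlier in this branch were under 2-fold by their brightest probe sets. Another probe set of Gpam and another of Gpd1 passed 2-fold downwards. Gpam, the mitochondrial glycerol-3-phosphate acyltransferase that starts glycerolipid synthesis, had signals of 7158.3 and 4393.9 (-0.70), with a second probe set at -1.23. Gpd1, which makes glycerol 3-phosphate, had signals of 2853.3 and 2167.1 (-0.39), and its 3 probe sets ranged from -1.04 to -0.39. The genes of the second acylation were close between the pools or unsettled. Agpat2, a major form in liver and fat, had signals of 3911.2 and 3427 (-0.19). Agpat1 had signals of 946.2 and 999.4 (0.08), which became -0.21 with the hybridisation controls as reference.

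For Agpat3, the brightest probe set read 1342.3 and 2366.3 (0.81), but its other 2 probe sets past the filter were lower, at -0.48 and -0.08. Dgat1, the acyltransferase that also re-esterifies imported fatty acids, had signals of 762.3 and 695.0 (-0.13), also by a probe set open to cross-hybridisation, and a dim second one read 57.6 and 312.6. Mogat1, a monoacylglycerol acyltransferase, had signals of 503.9 and 397.9 (-0.33). No direction is settled for Agpat3 and Dgat1.

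Probe sets of the same gene gave a check within the arrays, although they share the pools and are not replicates. Of the 66 probe sets past the filter, 30 passed 2-fold downwards and 3 upwards, against 10.8% and 10.4% of all such probe sets with 1 gene. Some of them reached the array median in 1 pool only, so the filter fixed their direction. Among the higher ones these were probe sets of Acsl4 (201.2 and 585.5) and Dgat1 (57.6 and 312.6). Among the lower ones they were probe sets of Acss2, Pklr and Acsl3. Of 24 pathway genes with several probe sets, 17 had every one lower and 3 every one higher, and Acly, Me1, Agpat3 and Dgat1 had both signs. Over all 5028 genes with several probe sets, every one was lower in 27.2% and higher in 28.0%. In 5 pathway genes every probe set was at least 2-fold lower, and in none was every one at least 2-fold higher, against 3.42% and 2.76% of all. These 5 were Acss2, Thrsp, Fads2, Lpin1 and Lpin2. With each gene read by the probe set of the smallest difference, 10 of the 32 genes passed 2-fold downwards and none upwards, against 8.00% and 7.06% of all genes. These 10 include Fasn, Mlxipl, Mid1ip1, Elovl2 and Elovl3, which have only 1 probe set past the filter. For them this choice could change nothing.

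**Figure D3:**
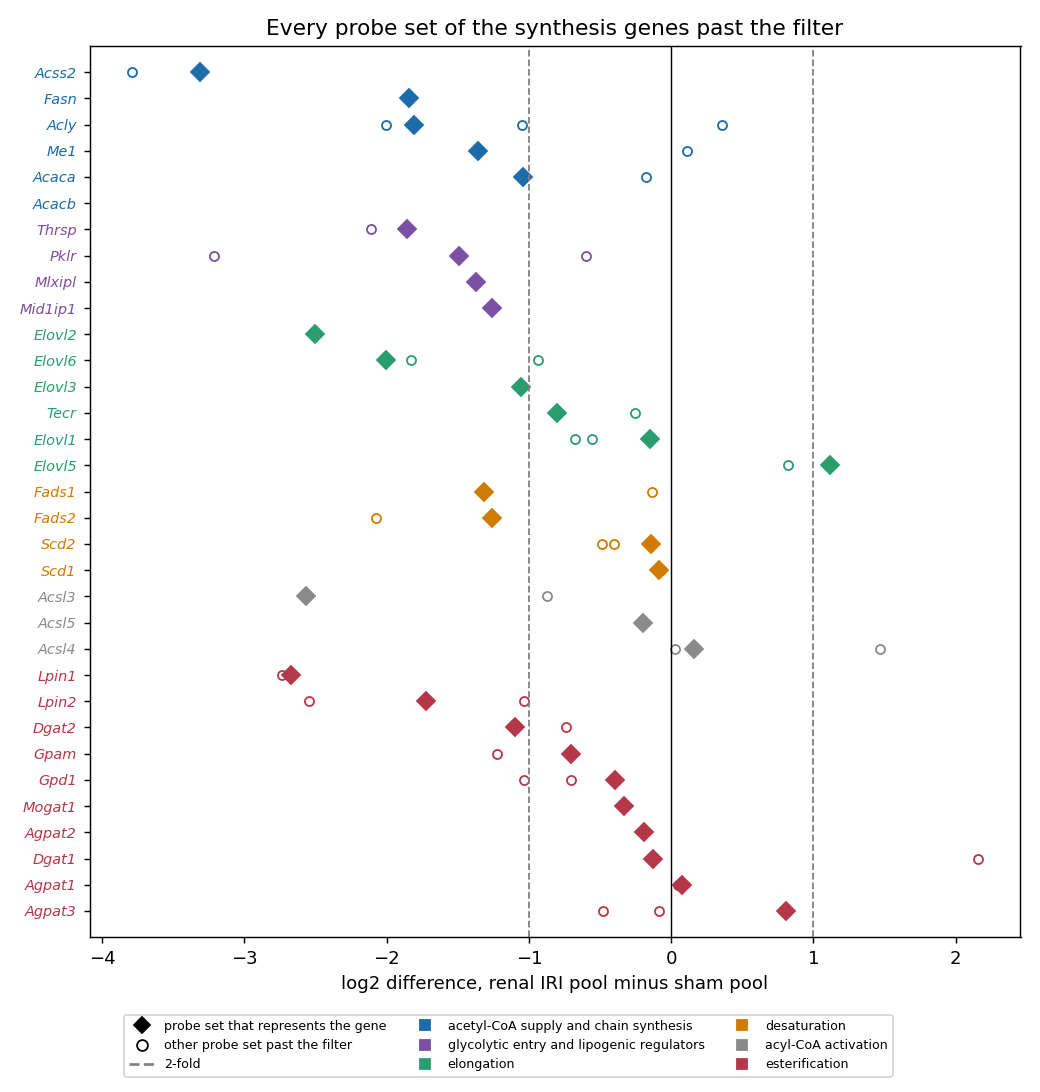
Log2 difference, renal IRI minus sham, of every probe set past the filter, with a filled diamond for the probe set that represents the gene and open circles for the others. The symbols of Acss2, Thrsp, Fads2, Lpin1 and Lpin2 all lie left of the dashed 2-fold line at -1, whereas those of Acly, Me1, Agpat3 and Dgat1 lie on both sides of 0.

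Other enzymes and carriers of the pathway went in both directions. Of 24 measured genes, 3 (12.5%) passed 2-fold downwards and 4 (16.7%) upwards, against 9.59% and 8.71% of all genes, with a median of 0.06. With dim signals raised to the array median, 2 were higher. The lower ones were Idh1, a cytosolic source of NADPH (10701.7 and 4255.3, -1.33), Aacs, which activates acetoacetate for synthesis (906.8 and 413.1, -1.10), and Gpat4, a microsomal glycerol-3-phosphate acyltransferase (2824.3 and 1351.6, -1.05; its other probe set stood at -0.28). The highest of those that reached the median on both arrays were Pgd, an NADPH-forming enzyme of the pentose phosphate pathway (1061.1 and 2395, 1.16, with all 4 probe sets higher), Hacd3, a dehydratase of elongation (4947.3 and 8957.6, 0.85), and the elongase Elovl7 (528.6 and 956.0, 0.84). The 3 probe sets of Hacd3 ranged from 0.14 to 1.20, and the 2 of Elovl7 stood at 0.84 and 2.19. The other genes past 2-fold upwards, named after their values were seen, were Lpin3 (40.1 and 410.4), Gpat3 (171.7 and 628.5) and Acsl6 (215.6 and 514.1), each under the array median in sham liver. The other probe set of Acsl6 past the filter stood at -1.54, so no direction is settled for it. The sources of NADPH were therefore not uniform, with Idh1 lower and Pgd higher, although Pgd was just under 2-fold (0.88) with the hybridisation controls as reference. Both genes were read by probe sets open to cross-hybridisation (suffix _s_at for Idh1 and _x_at for Pgd).

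Of 30 measured genes that control the pathway, 2 (6.67%) passed 2-fold downwards and 2 upwards, near the 9.59% and 8.71% of all genes, with a median of 0.06. Srebf1, which encodes SREBP-1, had signals of 3445.6 and 1942.6 (-0.82) by 1 probe set. Scap, which escorts SREBP to the Golgi, had signals of 2593.1 and 910.4 by 1 probe set (-1.49). Mbtps1, the first protease that cleaves SREBP there, had signals of 2115 and 1083.2 (-0.96). The paired retention proteins of SREBP and Scap in the endoplasmic reticulum differed in direction. Insig1, itself a target of SREBP, had signals of 3450.9 and 898.3 by 1 probe set (-1.92). Insig2, which has a liver transcript repressed by insulin, had signals of 2319.1 and 10155.9 (2.12, with all 3 probe sets higher).

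Mlx, the partner of ChREBP, had signals of 678.3 and 822.9 (0.27, or -0.01 with the hybridisation controls as reference). Nr1h3, the liver X receptor alpha, had signals of 1150.7 and 715.7 by 1 probe set (-0.67). Irs2, an insulin receptor substrate, was higher at 479.7 and 941.7 by 1 probe set (0.95). Xbp1, a factor of the unfolded protein response that also acts on lipogenic genes, was higher at 10837 and 32096.7 (1.57). The 4 probe sets of Xbp1 ranged from 0.02 to 1.57.

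Beside related pathways measured on the same arrays, 9 of 16 genes of cholesterol synthesis (56.2%) passed 2-fold downwards and none upwards (median -1.17), against 9.59% and 8.71% of all genes. Of 18 genes of mitochondrial fatty acid oxidation, 2 (11.1%) passed it downwards, Hadh and Etfa, and none upwards (median -0.42), a share of lower genes near that of all genes. With 1 pool per group, no difference between these lists could be tested.

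**Figure D4:**
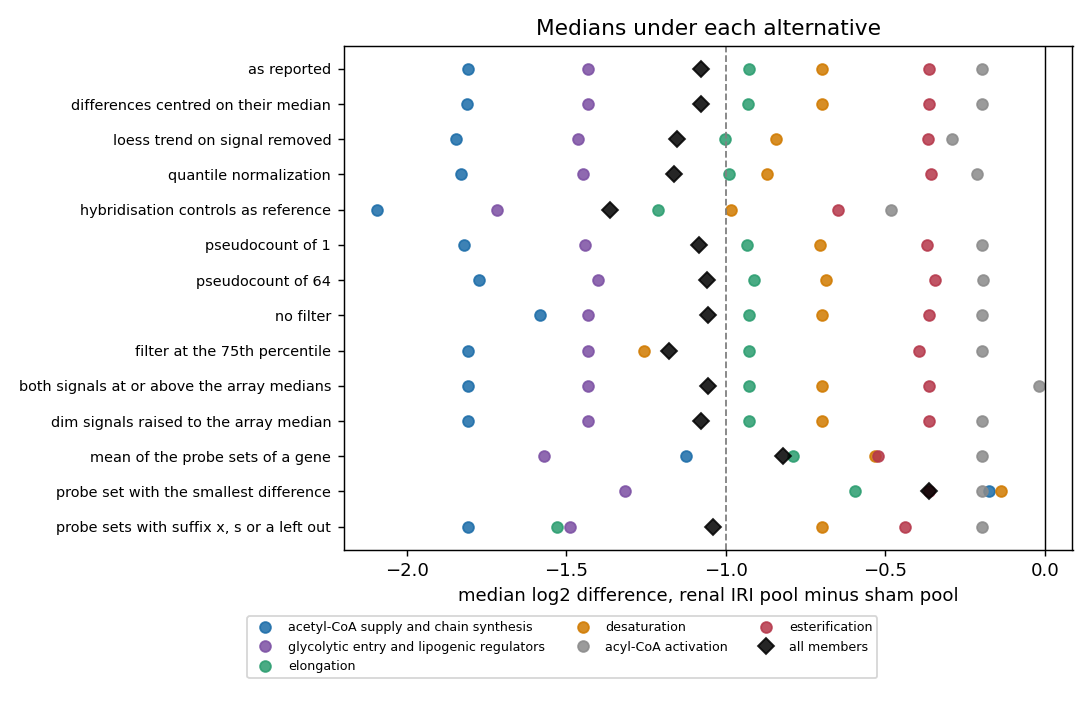
Median log2 difference, renal IRI minus sham, of all members (black diamonds) and of each step (coloured circles) as reported and under each alternative way of processing the values. Every median lies left of 0, and that of all members runs from -1.36 with the hybridisation controls as reference to -0.36 with the probe set of the smallest difference.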

How the data were processed

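The value table, as deposited, holds an array intensity per probe set, not on a log scale. Per the labels' protocols, RNA came from Trizol extracts, and 6 ug of it went into biotinylated cRNA. The trimmed mean (2% cut from either end) was 500.0 in both columns, so the authors had scaled the intensities before deposit, with summary software not given in the sources used here. Of 45037 probe sets that are not controls, 34945 had 1 gene, 932 several and 9160 none by the platform annotation, and symbols were updated through the Entrez ID. Probe sets naming several genes were left out, 1 of which includes a pathway gene. Values were taken as log2 of signal plus 16, with no test. A gene was read by whichever probe set past the filter had the highest mean on that scale. Every listed gene was named, and of other pathway genes the 3 lowest and 3 highest of each list at or above both medians plus Srebf1, Mlx, Nr1h3, Insig1 and Insig2. A fold bound replaces a signal under its array median by that median. The suffixes _x_at and _s_at mark probe sets that may cross-hybridise. The computation was tested on simulated data, with Python 3.11.15 and statsmodels 0.14.6. In those data all probe sets of a gene were given the same difference, unlike those here. That test therefore checks the code and not the calls made here. The members and lists were chosen with earlier results of these data known. Alternatives covered scaling, pseudocount, filter, probe set and fold threshold. The number of arrays limits the precision.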

Additional observations from a re-analysis of the deposited data

How the results depend on the processing

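With 1 array per group, all values describe 2 pools. The log2 differences of probe sets for 1 gene had a pooled SD of 0.72 over 5028 genes. All 18 hybridisation controls were higher on the renal IRI array (median log2 difference 0.28), so with them as reference the median of the members was -1.36 and that of esterification -0.65. Under all 4 scalings tried, the 18 lower members stayed at least 2-fold lower. Under all alternatives of scaling, pseudocount, filter and probe set in which a gene kept a probe set, 10 of them did. Among these 10, Fasn, Mlxipl, Mid1ip1, Elovl2 and Elovl3 had only 1 probe set past the filter, so reading another probe set could not change them. With the probe set of the smallest difference, 10 members were lower and 0 higher, the median of the members was -0.36, and those of acetyl-CoA supply, desaturation and elongation were -0.17, -0.14 and -0.59; Acly stood at 0.36 and Me1 at 0.11. With the mean of the probe sets of a gene, the median of the members was -0.82 and that of acetyl-CoA supply -1.13. Without probe sets of suffix _x_at, _s_at or _a_at, 15 members were lower and 2 higher, elongation stood at -1.53 and Me1 at 0.11. The higher ones were then Elovl5 and Dgat1, the latter by a probe set under the array median in sham liver (57.6 and 312.6). Of all 11359 genes left by that choice, 2107 were at least 2-fold lower or higher. With a filter at the 75th percentile, which removes Scd2, desaturation stood at -1.26. The count of members at least 2-fold higher was 0 by loess, quantile normalization and the hybridisation controls. At 3-fold, 9 members were lower and 0 higher, and at 1.5-fold, 20 were lower and 2 higher. Over all genes, 2401 were at least 2-fold lower or higher, 1479 with the filter at the 75th percentile, 1239 with both signals at or above the medians, 4985 at 1.5-fold and 1061 at 3-fold. No paired analysis was possible because each group has 1 array.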
